A study of Mus musculus with 4 samples.

Results

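The genes described here are 10 genes by which astrocytes are usually recognised, and the peaks of TOP2B cleavage complexes at and around them in cultured mouse cortical neurons. The genes are Gfap, Aqp4, Slc1a2, Slc1a3, Gja1, Gjb6, S100b, Aldoc, Sox9 and Fgfr3, out of 21631 protein-coding genes on the autosomes and X. A peak was counted for a gene when its summit lay in the span of the gene or within 20 kb of it. This took in 19 of the 35539 peaks deposited, at 6 of the 10 genes, and no summit fell to more than a single gene. The set was chosen by summit positions in this same list, Gfap for its close group of summits, so all peak values below are descriptions and carry no test.

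The libraries came from wild-type cortical neurons of Swiss-Webster embryos at embryonic day 16, dissociated and grown in culture. All cells received etoposide at 50 µM for 30 min, and the labels give no culture without the drug. There were 2 TOP2B immunoprecipitation libraries and 2 libraries of input, a 1% portion set aside before the antibody was added. The values analysed here are those of 1 peak list that pools the libraries. None can be given a standard deviation or a number of replicates, and library depths are unknown. The list holds no measure of expression and does not tell which cells of a culture a DNA fragment came from. The share of astrocytes in the cultures, and whether these genes were active there, could therefore not be checked. Positions are 1-based, on mouse build GRCm38.

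TOP2B is the type II topoisomerase that remains in cells that no longer divide. It cuts both strands of a DNA duplex, passes another duplex through the gap and reseals it, and while the gap is open the enzyme is bound covalently to the DNA ends. Etoposide blocks the resealing step, so that these cleavage complexes persist and can be precipitated. Astrocytes are the glial cells that take up glutamate and potassium, hold water channels at blood vessels and are joined to each other by gap junctions. In the developing cortex they are made after the neurons, and neurons keep most of the genes described here low or silent.

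Gfap and Gjb6 were the genes with a summit within 1 kb of their start, and the RefSeq sequence at these starts (GRCm38.p6) is shown because the position of the peak is read against it. Each sequence runs from 250 bases before the start to 50 bases after it, on the minus strand, from chr11:102897151-102897450 for Gfap and chr14:57133562-57133861 for Gjb6. In Gfap the capitals mark the base of the summit with 10 bases on each side. In Gjb6 the peak lay beyond the window, and the capitals mark the 50 bases from the start on, the side on which the peak lay.
Gfap: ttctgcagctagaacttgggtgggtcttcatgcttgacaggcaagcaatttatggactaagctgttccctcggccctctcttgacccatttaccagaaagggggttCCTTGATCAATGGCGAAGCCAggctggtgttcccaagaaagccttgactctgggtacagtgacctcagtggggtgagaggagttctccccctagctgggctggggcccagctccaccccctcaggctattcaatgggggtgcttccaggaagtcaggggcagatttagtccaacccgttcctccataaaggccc
Gjb6: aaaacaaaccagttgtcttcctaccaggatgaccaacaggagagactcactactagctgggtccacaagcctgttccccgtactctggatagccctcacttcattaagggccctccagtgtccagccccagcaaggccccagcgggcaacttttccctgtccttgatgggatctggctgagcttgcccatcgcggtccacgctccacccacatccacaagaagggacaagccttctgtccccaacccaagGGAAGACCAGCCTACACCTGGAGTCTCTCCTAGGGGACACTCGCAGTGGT

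Gfap, the gene of the intermediate filament protein of astrocytes, held the most summits of the 10 genes, 5 within 20 kb of a span of 9.865 kb on chromosome 11. The gene lies on the minus strand from 102887336 to 102897200. The summit within the gene, at 102888092, lay 756 bp from the far end of the gene and had a fold enrichment over control of 3.46, a pileup of 19 fragments and a q of 0.0102. Fold, p and q are the values of the authors' peak caller, and pileup and control level were reconstructed from fold and p. This was the strongest of the 5, above 94.2% of the list, although its width of 194 bp was close to the 190 bp minimum.

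The other 4 Gfap summits all lay upstream of the start. The nearest, at 102897334, lay 134 bp before it, inside the sequence window shown above, 213 bases of which the peak covered. Its fold was 2.30, with 14 fragments over a control level of 5.53 and a q of 0.272. It thus stood above only 10.9% of the list, and its control level was higher than the 4.78 common to most peaks. The next, at 102897714, lay 514 bp before the start, with a fold of 2.77, 15 fragments and a q of 0.110. These 2 summits at the start were 380 bp apart and neither reached a q of 0.05.

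The sequence before Gfap is shared with other genes. The long noncoding RNA gene Gm34560 is listed on the plus strand, with its start 145 bp from that of Gfap, and the nearest Gfap summit fell between both starts, 11 bp before that of Gm34560. The summit at 514 bp lay 369 bp inside Gm34560. A further one at 102902706, 5506 bp before Gfap, was also inside Gm34560 and had the lowest fold of all 19, 2.20, over a control level of 5.82 (q 0.320). The last, at 102907352, lay 10152 bp before Gfap within Kif18b, a kinesin gene of dividing cells, with a fold of 3.11 and a q of 0.0390. Of the 5 Gfap summits, the 2 that reached a q of 0.05 were therefore those farthest from its start.

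**Figure D1:**
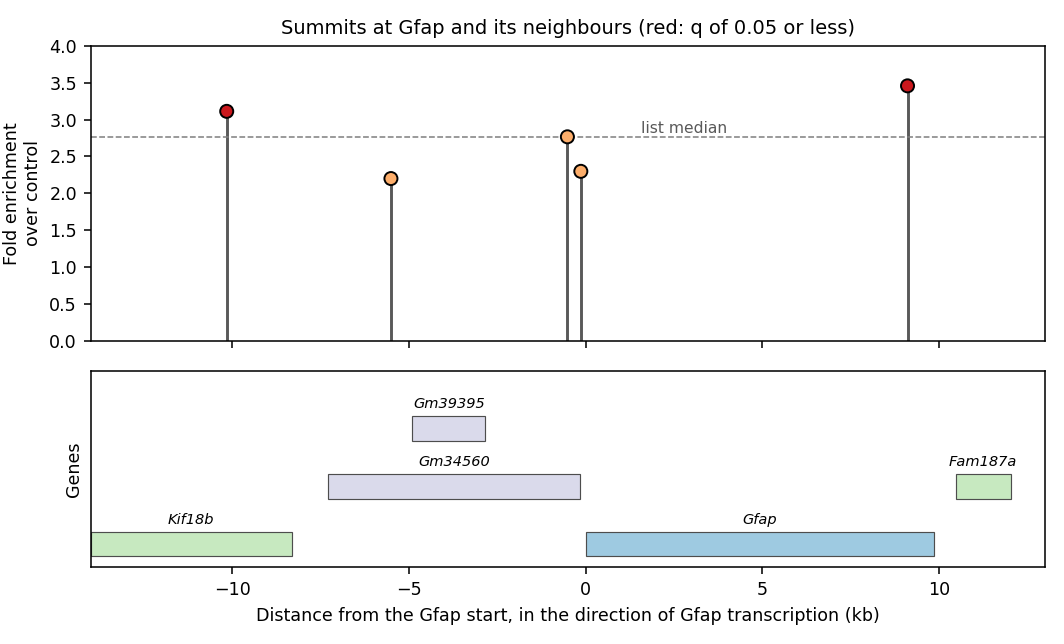
Fold enrichment over control (upper panel, linear axis from 0) of the 5 summits at Gfap by distance from its start in kb, with the spans of listed genes below, where Kif18b runs on past the left edge and Ccdc103, at the right edge, is not drawn. Negative distances are upstream, red points have a q of 0.05 or less, and the dashed line is the list median of 2.77; the 2 points beside the start are not red.

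Gfap was picked for holding 3 summits in under 10 kb, and its closest 3 spanned 5372 bp. These were the summits 134, 514 and 5506 bp before its start, so none lay in Gfap, 2 lay in Gm34560, and none reached a q of 0.05. The summit in Gfap with the 2 at its start also spanned under 10 kb. So did the summit in Kif18b with the 2 in Gm34560. The summits in Gfap and in Kif18b had a q of 0.0102 and 0.0390. A group of 3 in under 10 kb was found at 3.62% of all protein-coding genes and at 3.00% of those under 25 kb. Fgfr3 met the same measure, with 3 summits in 8919 bp, so 2 of the 10 genes did. With 5 summits within 20 kb, Gfap was among 6.93% of protein-coding genes, and among 1.94% of those under 25 kb. Per length it had 10.0 summits per 100 kb of window, a density reached by 164 protein-coding genes (0.758%). A summit in the promoter window was found at 0.787% of the 17274 protein-coding genes with a listed window, and at 1 of the 8 astrocyte genes with one, Gfap. The choice of Gfap used these same summits, so nothing is read from its place in these shares.

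Slc1a2 and Slc1a3 encode the glutamate transporters GLT-1 and GLAST, which clear glutamate from synapses. They are the longest of the 10 genes and had 3 summits each. Slc1a2, on chromosome 2 from 102658239 to 102790784, held 2 of its summits within 132.546 kb. The first, at 102711257, had a fold of 2.94 and a q of 0.0675. It lay 4819 bp after the only start listed for the gene, 102706438, which is itself inside the span. The second, at 102773858, had a fold of 2.43 and a q of 0.213, and the third lay outside, 10084 bp before the span, again with a fold of 2.94. Successive summits of Slc1a2 were 63102 and 62601 bp apart, in a window of 172.546 kb. Those of Gfap were 380 to 9242 bp apart, in a window of 49.865 kb. Gfap was picked for close summits, so nothing is read from these spacings.

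Slc1a3, on chromosome 15 from 8634124 to 8710807, held a single summit in the gene, at 8665566, 45241 bp from its start, with a fold of 2.77 and a q of 0.110. Its other 2 lay past the far end, at 7390 and 8971 bp, with folds of 2.94 and 2.77. They were 1581 bp apart, and the farther one was 346 bp wide, wider than all but 7.40% of the list. Slc1a3, like Gfap, has a noncoding gene on the other strand beside its start, Gm31340, with 219 bp between the starts. No summit fell between these starts, and the nearest lay 45241 bp away. None of the 6 transporter summits reached a q of 0.05.

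Gja1 and Gjb6 encode connexin 43 and connexin 30, the gap junction proteins of astrocytes, and stood apart in number. Gjb6, on chromosome 14 from 57123301 to 57133611, had 3 summits, and Gja1, on chromosome 10 from 56377300 to 56390419, had none, the nearest lying 37.617 kb outside the gene with a fold of 2.77. The Gjb6 summit at its start, at 57133469, lay 142 bp inside the gene and had a fold of 2.25 from 12 fragments, the fewest among the 19 summits and tied with the summit inside Fgfr3, and a q of 0.405. This peak ended 69 bp short of the sequence window shown above. The remaining 2 had higher folds. One lay 7789 bp upstream at 57141400, with a fold of 3.29, a q of 0.0208 and a width of 405 bp, and only 2.90% of peaks were wider. The other, at 57106136, lay 17165 bp past the far end of Gjb6, with a fold of 3.46 and a q of 0.0102. It fell within the noncoding gene Gm32912 and was nearest to Gjb2, the gene of connexin 26, whose start was 1434 bp away.

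Aqp4, the water channel gene of astrocyte endfeet, had no summit in its 21.589 kb or within 20 kb. The nearest lay 25.551 kb outside, with a fold of 2.94. S100b, the gene of a calcium-binding protein, on chromosome 10 from 76253836 to 76261319, had none either, and its nearest lay 54.724 kb away with a fold of 2.77. Aldoc, which encodes the brain form of aldolase, on chromosome 11 from 78323073 to 78327781, had none in its 4.709 kb and 1 in the flanks. That summit, at 78329012, lay 1231 bp past the far end of Aldoc and inside Pigs, 590 bp after the start of that gene, which encodes a subunit of the enzyme that attaches GPI anchors. Its fold was 3.46 and its q 0.0102, and its width of 473 bp was the largest of the 19, with 0.913% of the list wider.

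Sox9, the gene of a transcription factor of glial progenitors and astrocytes, on chromosome 11 from 112782210 to 112787757, had no summit within 20 kb, and the nearest lay 53.466 kb away. Fgfr3, which encodes a receptor for fibroblast growth factors carried by progenitors and astrocytes, had 4. It spans 33721724 to 33737068 on chromosome 5, and the summit in the gene, at 33730174, lay 7868 bp after the nearer of its 2 listed starts, with a fold of 2.25 and a q of 0.405. The other 3 lay 4472, 8602 and 13391 bp past its far end, all within Letm1, a gene of the inner mitochondrial membrane. Their folds were 3.11, 2.77 and 2.27, and the first alone reached a q of 0.05, at 0.0390. These 3 make up the group in 8919 bp, so that none of the group lay in Fgfr3 itself.

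**Figure D2:**
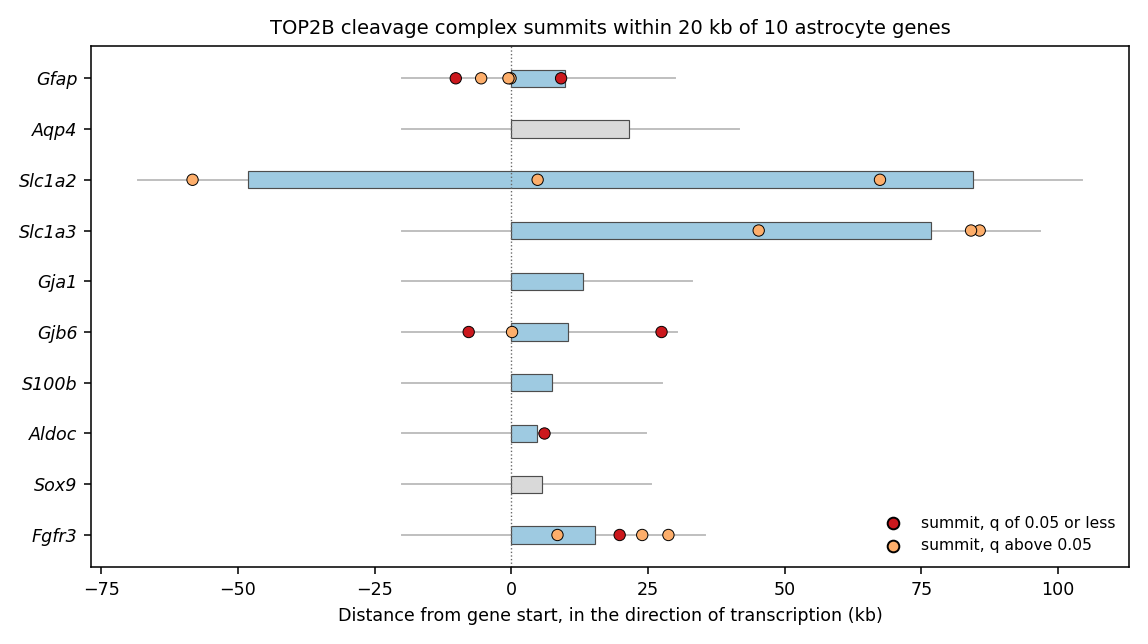
Summits (points) within 20 kb of each gene, by distance in kb from the first listed start in the direction of transcription, with boxes for gene spans and lines for the 20 kb flanks. The Slc1a2 box begins left of its listed start, which lies inside the span. The spans of Aqp4 and Sox9 (grey) are drawn from the end of lower coordinate; Aqp4, Gja1, S100b and Sox9 have no point, and 4 of the 5 Gfap points lie left of its start.

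Over the 10 genes, 6 of the 19 summits lay in one of the genes, 5 in another protein-coding gene, 3 in a noncoding gene and 5 outside all listed genes. By strand, 6 lay upstream and 7 downstream. A summit within 20 kb was found at 6 of the 10 genes, against 64.0% of all protein-coding genes, and one in the gene span at 5 of the 10, against 36.6%. A summit within 1 kb of either end was found at 2 of the 10, Gfap and Gjb6, against 8.30%. By the listed starts, 2 of 8 genes had a summit within 1 kb of a start, against 4.80% of protein-coding genes with a listed start. Among the 8 genes under 25 kb, 4 had a summit within 20 kb, against 54.3% of protein-coding genes of that length. There were 3 or more summits at 5 of the 10, against 20.9% of protein-coding genes, and none at 4. The choice of genes used these peaks, so the shares are set side by side and nothing is read from them.

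**Figure D3:**
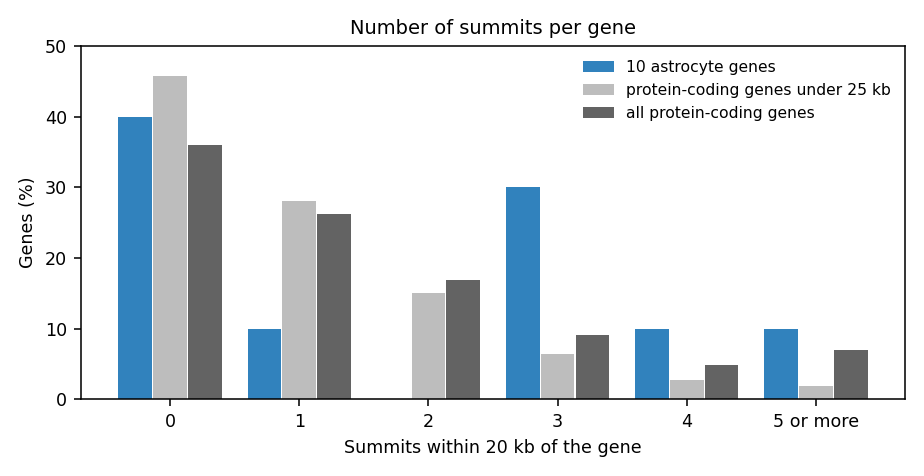
Percentage of genes (bars, axis from 0) by number of summits within 20 kb, for the 10 astrocyte genes, for protein-coding genes under 25 kb and for all protein-coding genes. A bar of 10% is a single astrocyte gene; 4 of them had 0 summits and 5 had 3 or more.

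Per length, the astrocyte gene windows together had 2.73 summits per 100 kb over 697.2 kb, against 1.77 over the windows of all protein-coding genes and 2.01 over those of genes under 25 kb. Without Gfap the figure was 2.16 from 14 summits. The gene spans themselves had 2.02 per 100 kb, against 1.71 over all protein-coding spans, and the 20 kb flanks had 3.25. Gfap, picked for close summits, supplied 4 of the 13 summits in the flanks, so nothing is read from this difference. Gfap, Fgfr3 and Gjb6 had 10.0, 7.23 and 5.96 summits per 100 kb of window, Slc1a3, Aldoc and Slc1a2 had 2.57, 2.24 and 1.74, and the remaining 4 had 0. These rest on 5 summits or fewer each, so the order among neighbours in this series is not firm.

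The regions around the genes differed as well, and each region counted here includes the gene's own 20 kb window. With flanks of 500 kb, Aldoc had 35 summits, Gfap 32, and Fgfr3 and S100b 27 each, while Sox9 had 11, Aqp4 10 and Gja1 8. Aldoc, Gfap and S100b lay among many genes, with 35.8, 29.7 and 28.8 protein-coding genes per Mb, whereas Aqp4, Gja1 and Sox9 lay among few, with 3.92, 2.96 and 1.99. Of the 4 genes without a summit, these 3 were therefore in sparse regions. S100b was the exception, with none within 54.724 kb but 2.68 per 100 kb in its region. Gfap had 10.0 per 100 kb in its own window and 3.17 in its region, and Aldoc had 2.24 in its window and 3.48 in its region. Aldoc and S100b, in 2 of the 3 regions richest in genes, had 1 summit and none in windows of 44.709 and 47.484 kb. Slc1a2 and Slc1a3, in regions of 7.95 and 8.36 protein-coding genes per Mb, had 3 each in windows of 172.546 and 116.684 kb. Per 100 kb of window, Slc1a2 and Slc1a3 had 1.74 and 2.57, against 2.24 for Aldoc and 0 for S100b. The relation of the counts to gene density was not tested.

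**Figure D4:**
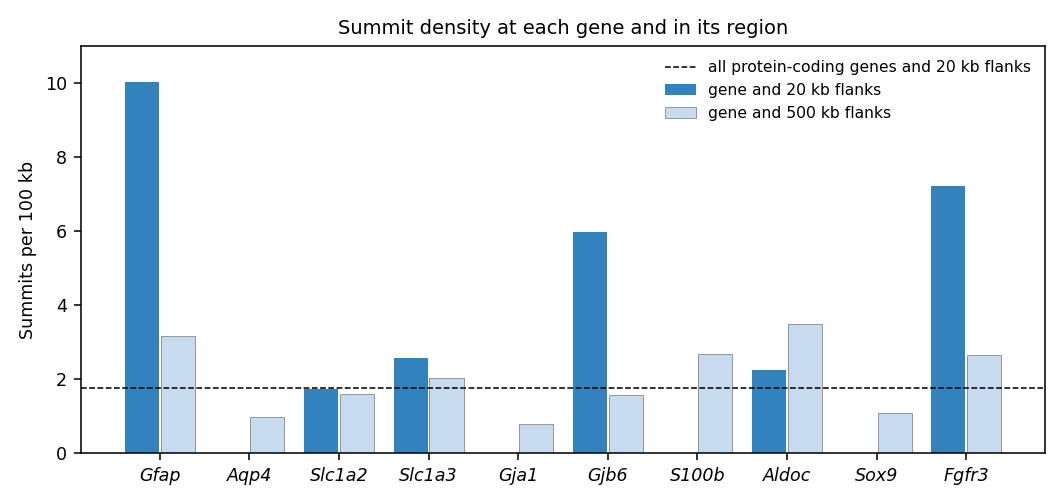
Summits per 100 kb (bars, axis from 0) in each gene with 20 kb flanks and in the same gene with 500 kb flanks; the dashed line is 1.77, the value over the 20 kb windows of all protein-coding genes. Gfap, Fgfr3, Gjb6, Slc1a3 and Slc1a2 lie above their regions, the last of these by 1.74 against 1.59, while S100b has 2.68 in its region and no bar for its window. Each region includes the window it is set beside.

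In strength the 19 peaks were ordinary for the list. Their median fold was 2.77 and their median pileup 15 fragments, both equal to the medians of the list, and their median width was 221 bp, against 222 bp. The folds ran from 2.20 to 3.46 and the pileups from 12 to 19 fragments. A fold of 3.46 was above 94.2% of the list. Fos, an immediate early gene of neurons, reached a fold of 49.6 in the same list, and the next highest fold was 4.84. A q of 0.05 or less was found at 6 of the 19 peaks, against 23.4% of the list. These 6 were 2 at Gfap, 2 at Gjb6 and 1 each at Aldoc and Fgfr3. Only the Gfap summit near its far end lay inside one of the 10 genes, and the other 5 lay in flanks or neighbouring genes. No peak reached a q of 0.01, and 3 tied at the lowest value, 0.0102. The control level was the common 4.78 at 15 of the 19 summits (78.9%), against 71.1% of the list.

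**Figure D5:**
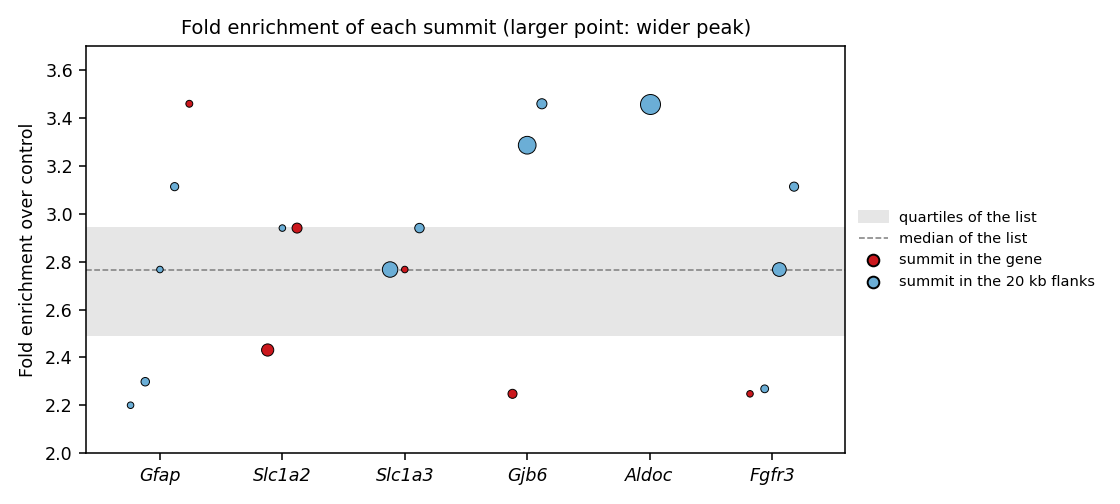
Fold enrichment over control of each of the 19 summits (points, linear axis that starts at 2), by gene, with the median and quartiles of the list; larger points are wider peaks. Folds run from 2.20 to 3.46, and the summits in Gjb6 and Fgfr3 are the lowest of their genes, while that in Gfap is the highest of its gene.

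The limit of 20 kb left few summits near it. The farthest inside was that at 17165 bp from Gjb6, with a fold of 3.46, and the nearest outside were at 22.048 kb from Gfap (fold 2.94), 23.794 kb from Fgfr3 (2.59) and 25.551 kb from Aqp4 (2.94).

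The promoter sequences, which the choice of genes did not use, varied among the 8 genes with an entry (all but Aqp4 and Sox9), which hold 10 windows of 300 bases. The Gfap window had 55.7% G and C and 3 CpG pairs, and that of Gjb6 57.3% and 6, against medians of 56.7% and 13 over 21045 windows of protein-coding genes. The windows at the 2 starts of Fgfr3 were richest, with 26 and 30 CpG pairs. The only window listed for Slc1a2 was poorest, with 1. It lies at a start inside the gene, 102706438, so the sequence at the first base of the span, 102658239, was not covered. A STAT-like match, TTCNNNGAA, whose letters read the same on both strands, was found in 3 of the 10 windows, at Gfap, Aldoc and Slc1a3, against 7.76% of all windows. That of Gfap began 2 bp before the start, away from the summit. TATAAA, the letters of a TATA box, was found only in the Slc1a3 window, against 12.7% of all windows. It lay 161 bp before the start, on the strand opposite to the gene. The AP-1 match TGANTCA was found only in the Gja1 window, against 7.04%. CCAAT was found at Fgfr3, S100b and Slc1a3 (38.5% of all windows), and GGGCGG in 4 windows at Aldoc, Fgfr3 and Slc1a3 (46.7%). The CRE, TGACGTCA, was in none of the 10, against 2.26% of all windows. All were searched on both strands, some matches can overlap, and a match of letters is not a binding site.

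In a wider list of 30 other astrocyte genes, 21 had a summit within 20 kb (70.0%), against 64.0% of protein-coding genes, with 2.16 summits per 100 kb. There were 3 or more summits at 8 of the 30, against 20.9% of protein-coding genes. Nfia, the gene of a transcription factor that turns progenitors to glia, had the most, 12, over 540.8 kb. Acsbg1, which encodes an acyl-CoA synthetase, had 6, with 3 of them in 6069 bp, the only such group among the 30, against 3.62% of protein-coding genes. Nfib, a relative of Nfia, and Slc4a4, a bicarbonate transporter gene, had 5 each, over 216.6 and 445.8 kb. Per 100 kb of window, Nfia, Acsbg1, Nfib and Slc4a4 had 2.07, 6.19, 1.95 and 1.03, against 1.77 over all protein-coding windows. Agt, the angiotensinogen gene, and Aldh1l1, a folate enzyme gene, had 4 each, and Mlc1, a membrane protein gene, and Slc7a10, an amino acid transporter gene, had 3 each. The highest density among the 30 was 7.53 per 100 kb, at Agt. Gfap had 10.0, but it was picked for close summits, so nothing is read from this order.

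Of these 30, Sparcl1, Agt and Fabp7 had a summit within 1 kb of an end, 3 of 30 against 8.30% of protein-coding genes. The folds were 3.46 at Sparcl1, an extracellular matrix protein gene (q 0.0102), 2.94 at Agt (q 0.0675) and 2.76 at Fabp7, a fatty acid binding protein gene of radial glia (q 0.110). Glul, which encodes glutamine synthetase, Ndrg2 and S1pr1 were among the 9 genes with none within 20 kb. Vim, which encodes the other filament protein of astrocytes, had 1, outside the gene, with a fold of 3.29.

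Genes of other cell types lay on both sides of these values. Of 15 oligodendrocyte lineage genes, 12 had a summit within 20 kb (80.0%), with 2.67 per 100 kb, led by Cspg4 with 5. Of 20 neuronal genes, 13 had one (65.0%), with 1.92 per 100 kb, led by Rbfox3 with 17 over 421.8 kb. Tubb3, a neuronal tubulin gene of 10.463 kb, a length near that of Gfap, had 5 summits and 9.91 per 100 kb. Its closest 3 spanned 13240 bp, a measure by which Gfap was picked. Groups of 3 in under 10 kb were found at 2 of the 15 and 2 of the 20, against 3.62% of protein-coding genes. No difference between the astrocyte genes and these lists was tested, and none is claimed.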

How the data were processed

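TOP2B cleavage complexes were precipitated without crosslinking from etoposide-treated neurons, per the labels' protocols, and 1 strand was digested with lambda exonuclease before linear amplification. The submitters' processing notes name MACS2, BWA, SAMtools, Trimmomatic and FastQC, with no versions, and the builds mm10 and GRCm38.p6. How the caller was set, how duplicates were handled and what was pooled is not given in the sources used here. The authors deposited 1 peak list without header, pooled over libraries. By its layout, the deposited values per peak are the fold, −log10 p and −log10 q. The fold was taken as the linear ratio of pileup to control, with 1 added to each. The deposited display score was not used, and 1 was added to the positions to count from 1. No peak had a −log10 p under 2.00.

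Of 35539 peaks, 34 on scaffolds and patches were left out. Pileup and control were solved from fold and a Poisson p within 0.002 of −log10 p, with a unique solution for 35497 of 35505 peaks. Genes came from a RefSeq table of GRCm38.p6, and starts, strands and sequences from its promoter table, with Python 3.11.15, pandas 2.3.3 and SciPy 1.17.1. Counting and solving were tested on simulated summits and peaks. No genome was used, so exons, UTRs and sequence at other summits were not analysed here. With 1 condition and a pooled list, no test between groups or replicates was possible, and depth and counting error are unknown. Another setting moved a value where it changed it by over 1.5 times. The members and lists were chosen with earlier results of these data known. All 10 genes and their summits are named. Of the 30 other astrocyte genes, those with an end summit or 3 or more summits are named, and of the other lists the leading gene. Glul, Ndrg2, S1pr1, Vim and Tubb3 were named after their values were seen.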

Additional observations from a re-analysis of the deposited data

How the results depend on the processing

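The 19 summits at 6 genes, and 5 at Gfap, depend on the 20 kb limit and on the threshold of the list. Inside the gene spans alone there were 6 summits, 1 of them at Gfap, and 12 of the 30 other astrocyte genes had one, against 36.6% of protein-coding genes. Within 5 kb there were 10 summits, 3 at Gfap, and within 50 kb 29, of which 9 at Gfap. With folds at or above the list median, Gfap kept 3. With a q of 0.05 or less there were 6 summits, 2 at Gfap, or 0.861 per 100 kb against 0.426 over all protein-coding windows, and 11 of the 30 other genes had one, against 27.6% of protein-coding genes. At a −log10 q of 2 or more there were 0 summits, at 0 of the 10 genes, with 0 at Gfap and 0 per 100 kb, and 2 of the 30 other genes had one, against 5.48%; 1246 peaks of the list passed that limit. The count of the 10 genes with a summit ran from 4 (q of 0.05 or less, against 27.6% of protein-coding genes) to 8 (50 kb, against 80.6%) under the other 9 settings. Merging entries within 500 bp made 1 of the 2 summits at the Gfap start, which left 18 in all and 4 at Gfap. Overlap by the whole interval, and leaving out peaks of high control level, gave the same counts of 19, 6, 5 and 21. No paired analysis was possible because the list is pooled over libraries and holds no sample columns; for the same reason no replicate could be left out.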
